A study of Mus musculus with 24 samples.

Results

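Livers of Mdr2-/- mice bearing experimental cholangiocarcinoma were compared with livers of wild-type mice without tumour, across all expressed genes. The first group holds 6 libraries labelled CCA.Mdr2-/-, from tumour-bearing tissue in which a transposon had delivered the oncogenes AKT and YAP1. The second holds 6 libraries labelled Ctrl.Wild-type, from non-tumour tissue after an empty transduction. These are 12 of the 24 bulk RNA-seq libraries of the series, and the groups were taken from the treatment labels. The other 12 libraries, 6 of Mdr2-/- livers with empty transduction (Ctrl.Mdr2-/-) and 6 of tumour-bearing wild-type livers (CCA.Wild-type), share 1 of the 2 factors with the tumour-bearing Mdr2-/- group and served for comparison. The labels give no age, sex or strain and do not state how much of each piece of tissue was tumour. Genotype and oncogene delivery change together between the 2 groups, so their shares in a difference cannot be told apart within this comparison. Below, "with tumour" is short for the tumour-bearing Mdr2-/- group and does not single out 1 of the 2 factors. The tissue is called individual in the design text without a statement that libraries and animals match 1 to 1, and the p-values therefore measure the spread between these samples.

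Mdr2 is the protein name of Abcb4, the canalicular flippase that moves phosphatidylcholine into bile. Without it bile acids are not buffered by phospholipid, and mice develop injury of the small bile ducts with proliferation of duct-like cells, periductal fibrosis and inflammation. AKT is the central kinase of PI3K signalling and YAP1 the transcriptional coactivator restrained by the Hippo pathway, which works through TEAD factors. Together they can turn hepatocytes into tumour cells with a biliary character. In bulk tissue, fewer cells of a type and less RNA per cell cannot be told apart.

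Total counts were 24245316 to 28304090 in the tumour-bearing Mdr2-/- libraries and 20976459 to 28416901 in the wild-type controls, so depth did not separate the groups. Composition did. The share of counts from mitochondrial-encoded genes was 3.82 ± 1.03% in the tumour-bearing group and 7.57 ± 1.06% in the controls (SD, n = 6 each, 2-sided exact permutation p = 0.00216, adjusted p = 0.00289 over 4 shares), and the 10 most abundant genes took 16.2 ± 1.21% and 20.9 ± 0.564% (exact permutation, adjusted p = 0.00289). A set of 7 abundant nuclear non-coding RNAs, Malat1, Neat1 and Xist among them, took 6.24 ± 1.44% and 4.29 ± 0.959% (exact permutation, adjusted p = 0.0217). The groups overlapped for this share (4.60 to 7.95% and 2.91 to 5.42%), and on the authors' TPM its difference did not pass the test. TMM factors, which rescale library totals so that the bulk of genes is level, were 0.775 to 0.865 in controls and 1.03 to 1.39 in the tumour-bearing group. Tumour-bearing replicate 1 stood apart from its group on the first principal component of log2 CPM (-7.70, against -41.0 to -60.4 in the other 5 and 64.9 to 92.0 in controls). Levels below are CPM, a gene's rate of counts after TMM scaling of the library total, and changes are log2 fold changes ± SE from edgeR's quasi-likelihood test, with a gene called where the p adjusted by Benjamini-Hochberg over all genes is under 0.05.

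The targeted gene was examined first. Abcb4 (ENSMUSG00000042476) was at 244 to 377 CPM (median 274) in wild-type controls and at 21.7 to 59.3 CPM (median 25.9) in tumour-bearing Mdr2-/- livers, a change of -3.20 ± 0.23 (edgeR adjusted p = 1.49e-10). The groups did not overlap, and tumour-bearing replicate 1 held the highest of the low values. Akt1 (ENSMUSG00000001729), the mouse counterpart of a delivered oncogene, was at 21.2 to 47.5 CPM (median 34.8) in controls and at 44.9 to 134 CPM (median 116) in the tumour-bearing group, a rise of 1.57 ± 0.26 (adjusted p = 1.96e-05). Only the lowest tumour-bearing library, replicate 1, lay within the control range. Yap1 (ENSMUSG00000053110) was at 48.6 to 78.4 CPM (median 52.9) in controls and 40.7 to 58.6 CPM (median 52.5) in the tumour-bearing group (-0.14 ± 0.15, edgeR adjusted p = 0.468), and its direction depended on scaling (0.41 with total library size, adjusted p = 0.0323). It also turned, without a call, with the non-coding RNA share of each library as a covariate (0.21). The species of the delivered sequences is not stated, so how far their reads enter the mouse genes is unknown.

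Of 17216 genes tested, 7649 (44.4%) were called. Higher in the tumour-bearing Mdr2-/- livers were 4302 (25.0%) and lower were 3347 (19.4%). By at least 2-fold, 2644 (15.4%) rose and 901 (5.23%) fell, so the large changes were mostly rises. For 2649 genes (15.4%) every tumour-bearing library lay above every control, and for 1483 (8.61%) every one lay below. The balance of rises and falls rested on the scaling. Rises were 56.2% of the calls with TMM, 62.8% with upper-quartile factors, 92.1% with total library size and 93.2% on the authors' TPM with limma on log2(TPM + 1). Total library size shifted the all-gene median by 0.546 on the log2 scale, and every change below is relative to TMM. With total library size 9051 genes (52.6%) were called higher and 773 (4.49%) lower, and counts of list members given for that scaling are to be read against these shares. In gene lists below, counts with TMM are to be read against 25.0% higher and 19.4% lower, and medians against -0.04 over all genes.

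**Figure D1:**
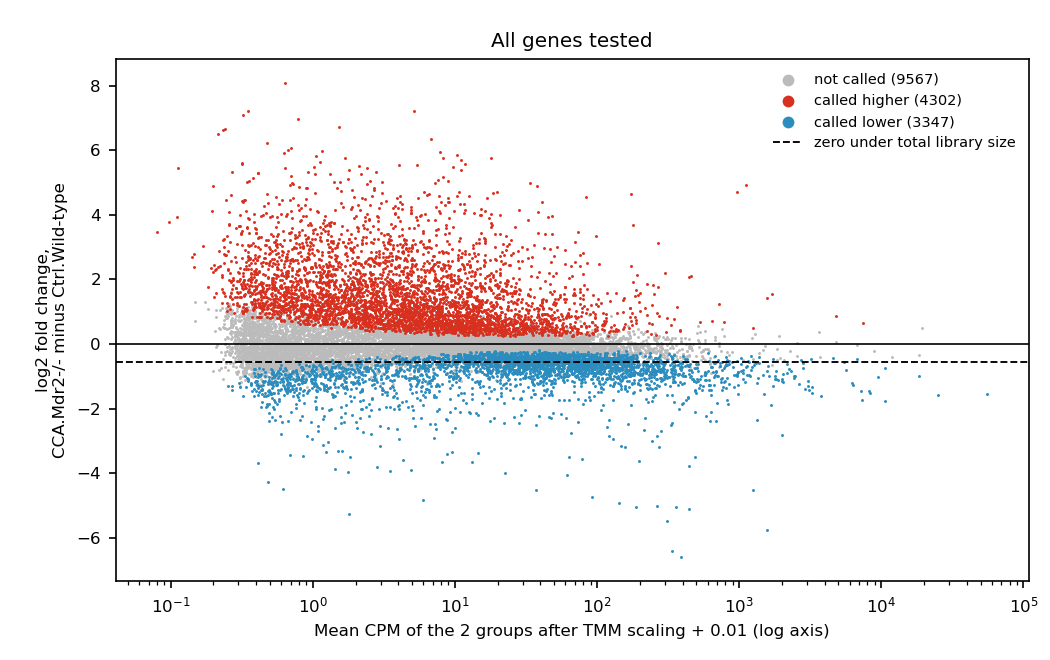
Log2 fold change of each gene tested, tumour-bearing Mdr2-/- minus wild-type control (vertical), against its mean level in the 2 groups in CPM after TMM scaling, with 0.01 added for the log axis (horizontal). The 4302 genes called higher spread farther from 0 than the 3347 called lower; the dashed line, 0.546 below 0, marks the change that would be 0 with total library size.

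The 10 largest rises and 10 largest falls were taken among genes at 5 CPM or more in the higher group and with no overlap between the groups, so a low level on the other side and the separation of the groups come from the choice itself. Akr1cl, an aldo-keto reductase family member, was at 0 to 0.274 CPM (median 0.0215) in controls and 5.53 to 23.2 CPM (median 7.32) in tumour-bearing Mdr2-/- livers (7.22 ± 1.11, edgeR adjusted p = 1.18e-05). Wfdc18, a secreted protein of the whey acidic protein family, went from 0.0909 to 1.86 CPM (median 0.518) in controls to 16.9 to 65.8 CPM (median 32.0) with tumour (5.76 ± 0.80, adjusted p = 3.5e-06). Cftr, the chloride channel that drives bicarbonate secretion by bile duct cells, went from 0.182 to 0.931 CPM (median 0.303) in controls to 8.88 to 36.1 CPM (median 20.6) with tumour (5.69 ± 0.77, adjusted p = 2.61e-06). The other 7 of the 10 largest rises were Prss35, Clca3a2, the phospholipase Pla2g5, gamma-synuclein (Sncg), the kidney-type cadherin Cdh16, the trypsin inhibitor Spink1 and the organic anion carrier Slco1a6, at 5.48 to 6.34. Mdr2-/- controls held little of most of these 10. Slco1a6 was at 0.185 ± 0.108 CPM there and at 18.8 ± 6.26 CPM in the tumour-bearing Mdr2-/- livers (SD, n = 6), whereas tumour-bearing wild-type livers held 13.8 ± 7.57 CPM. Cftr was higher, at 4.24 ± 3.75 CPM in Mdr2-/- controls against 0.434 ± 0.300 CPM in wild-type controls.

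The largest falls were mostly of metabolic enzymes and urinary proteins. Sult3a2, a sulfotransferase, was at 581 to 1152 CPM (median 688) in controls and 3.56 to 16.5 CPM (median 5.81) in tumour-bearing Mdr2-/- livers (-6.60 ± 0.70, edgeR adjusted p = 8.1e-08). Cyp4a14, a fatty acid hydroxylase, went from 599 to 1245 CPM (median 891) in controls to 7.35 to 60.4 CPM (median 15.4) with tumour (-5.12 ± 0.45, adjusted p = 3.9e-09). Mup9, one of the major urinary proteins that carry pheromones, was very uneven among controls, at 83.6 to 2394 CPM (median 210.4), and at 13.9 to 27.9 CPM (median 20.9) in the tumour-bearing group (-5.06 ± 0.83, adjusted p = 3.02e-05). Sult3a1, Cyp2c69, Cyp2c40, Mup18, Cyp3a44, Hsd3b1 and Serpina4-ps1 made up the rest of the 10, at -6.40 to -4.74. Most of the 10 belong to families of nearly identical neighbours, among which reads may have been divided in ways the files do not show, so values of single Sult3a, Cyp2c, Cyp3a and Mup genes are uncertain. Mdr2-/- controls were low as well, for Sult3a2 was at 6.88 ± 2.77 CPM and Cyp2c69 at 6.83 ± 2.74 CPM.

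**Figure D2:**
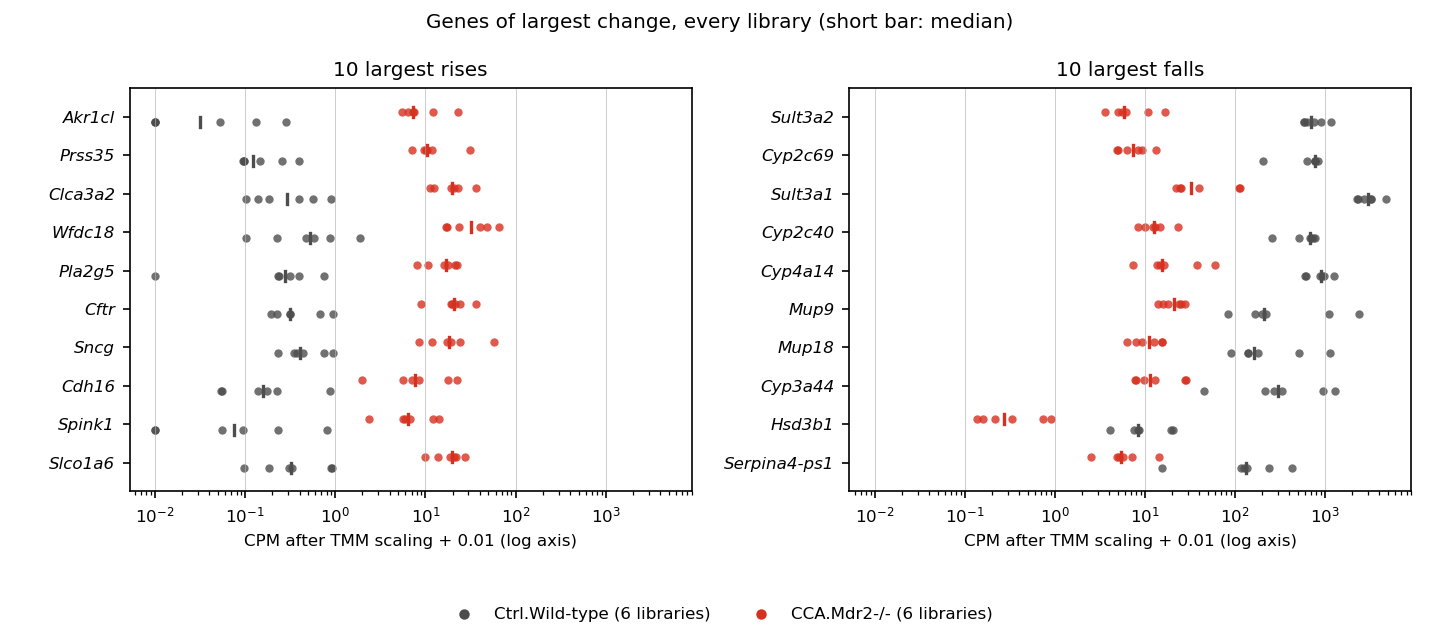
Level of the 10 genes of largest rise (left) and 10 of largest fall (right) in each of the 6 wild-type control and 6 tumour-bearing Mdr2-/- libraries, in CPM after TMM scaling with 0.01 added, on a log axis; short bars are medians. The genes were chosen without overlap, and the Mup9, Mup18 and Cyp3a44 points of the controls spread widely.

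Markers of bile duct epithelium rose nearly throughout. Of 22 cholangiocyte markers tested, 20 rose and 0 fell (25.0% and 19.4% of all genes), with a median log2 fold change of 3.81 against -0.04 over all genes, and 22 rose with total library size. Spp1, which encodes osteopontin, was at 40.1 to 119 CPM (median 58.2) in controls and 1050.5 to 3826 CPM (median 2018) in tumour-bearing Mdr2-/- livers (4.93 ± 0.55, edgeR adjusted p = 1.29e-07). Krt7, a keratin of bile ducts, went from 0.454 to 1.48 CPM (median 0.715) in controls to 7.80 to 29.5 CPM (median 22.8) with tumour (4.57 ± 0.58, adjusted p = 6.41e-07), and Ehf, an epithelial transcription factor, from 0.301 to 1.64 CPM (median 1.11) in controls to 5.53 to 47.5 CPM (median 22.8) with tumour (4.58 ± 0.69, adjusted p = 9.04e-06). All 3 were fully separated between the groups, as were 17 of the 22 markers (15.4% of all genes in this direction). Fitted levels were also above those of both groups that share 1 factor: Spp1 exceeded Mdr2-/- controls by 4.31 ± 0.54 (adjusted p = 5.77e-06) and tumour-bearing wild-type livers by 1.76 ± 0.48 (adjusted p = 0.0182), and Krt7 by 2.54 ± 0.50 (adjusted p = 0.000727) and 2.03 ± 0.49 (adjusted p = 0.00796). Libraries overlapped here. Spp1 was at 148 to 1308 CPM (median 457) in tumour-bearing wild-type livers, of which replicates 3 and 5 lay above the lowest tumour-bearing Mdr2-/- library, and its call against them was absent without tumour-bearing Mdr2-/- replicate 6 (1.53), without tumour-bearing wild-type replicate 2 (1.62) or 4 (1.57) and with no filter on low counts (1.72). Krt7 was at 1.17 to 10.1 CPM (median 3.96) in tumour-bearing wild-type livers and 1.52 to 8.88 CPM (median 2.54) in Mdr2-/- controls, and in each of these groups the highest library passed the lowest of the tumour-bearing Mdr2-/- group. Against Mdr2-/- controls, 14 of the 22 markers were higher (17.9% of all genes), and against tumour-bearing wild-type livers 12 were higher (7.13%) and 1 lower (4.0%). In the last comparison 6 were higher without tumour-bearing Mdr2-/- replicate 6 or tumour-bearing wild-type replicate 2 or 4, and 7 without tumour-bearing wild-type replicate 1. Without tumour-bearing Mdr2-/- replicate 1 a marker was lower than in Mdr2-/- controls. With the non-coding RNA share of each library as a covariate 9 were higher than in Mdr2-/- controls.

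Other epithelial genes moved with them. Of 17 epithelial keratins and claudins, 12 rose and 2 fell (15 and 0 with total library size). Krt19, a keratin of ducts and progenitors, was at 0.136 to 1.16 CPM (median 1.03) in controls and 5.56 to 24.9 CPM (median 18.2) in the tumour-bearing group (4.30 ± 0.61), and Cldn4, a tight junction protein of ducts, rose by 4.24 ± 0.54, while Cldn1 changed by -0.90 ± 0.23 (edgeR adjusted p = 0.00212; -0.38, no longer called, with total library size). Of 11 mucins and trefoil factors only 5 passed the filter on low counts, and 4 of these rose. Among them was Muc13 (4.52 ± 0.63), a membrane mucin, from 0 to 0.488 CPM (median 0.129) in controls to 1.22 to 9.09 CPM (median 3.35) with tumour. A gene near 0 in controls passes the filter only through a group where it is higher, so this count says little about the list. Oncofetal and hepatoblast genes, which are active in fetal liver and often return in liver cancer, were less uniform. Of 10 tested, 5 rose and 0 fell, 3 rose without tumour-bearing replicate 3, and 1 fell without control replicate 1. Ly6d, a small surface antigen, rose without overlap, from 4.82 to 10.4 CPM (median 6.06) in controls to 99.5 to 298 CPM (median 136) with tumour (4.56 ± 0.34, adjusted p = 1.83e-10), and Gpc3, the proteoglycan glypican 3, from 0.681 to 1.66 CPM (median 1.12) in controls to 3.19 to 32.1 CPM (median 7.08) with tumour (3.15 ± 0.45, adjusted p = 3.15e-06). Igf2, a fetal growth factor, was at 0.473 to 2.50 CPM (median 1.48) in controls and 1.73 to 202 CPM (median 2.21) in the tumour-bearing group. Its call (4.66 ± 1.13, adjusted p = 0.00185) rested on replicate 3, without which the change was 0.85 (adjusted p = 0.113).

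YAP and its relative TAZ act on promoters and enhancers through TEAD factors, whose core recognition sequence is GGAATG. Of 20 targets tested, 13 rose and 1 fell, with a median of 0.92 (17 and 1 with total library size; 2 fell without tumour-bearing replicate 5 or without control replicate 3). Ankrd1, a cardiac ankyrin repeat protein and a standard readout of YAP, was at 0.227 to 2.30 CPM (median 0.431) in controls and 5.60 to 19.2 CPM (median 11.6) in tumour-bearing Mdr2-/- livers (3.84 ± 0.65, edgeR adjusted p = 3.59e-05). Ctgf, a matricellular protein, went from 6.54 to 14.5 CPM (median 11.1) in controls to 55.7 to 139 CPM (median 73.3) with tumour (2.94 ± 0.37, adjusted p = 6.64e-07). Ajuba, a LIM protein that binds the Hippo kinases, went from 2.23 to 5.28 CPM (median 3.68) in controls to 9.10 to 29.3 CPM (median 21.4) with tumour (2.48 ± 0.27, adjusted p = 8.43e-08). None of the 3 overlapped between the groups. Tgfb2 (4.05 ± 0.46) had the largest rise of the list, and Nt5e, the ectoenzyme that makes adenosine, changed the other way (-1.86 ± 0.24, from 75.8 to 142 CPM (median 131) in controls to 19.9 to 50.4 CPM (median 33.6) with tumour). Ajuba was at 16.9 ± 4.16 CPM in Mdr2-/- controls and at 17.4 ± 6.56 CPM in tumour-bearing wild-type livers, against 20.7 ± 7.32 CPM in tumour-bearing Mdr2-/- livers (SD, n = 6), with no call between the tumour-bearing Mdr2-/- group and either (adjusted p = 0.363 and 0.59).

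Promoters of 2 targets that rose are shown, as the factor of this list has a known core sequence. They were chosen after the shares of several motifs in several lists had been seen, as told further below. RefSeq promoters (GRCm38.p6, 250 bases before to 50 after the start, whereas the counts are on mm39) were searched on both strands for GGAATG, which reads CATTCC on the other strand. Of 16 promoters of the list 8 held it, as did 14.7% of the 32851 promoters of all genes. Those of Ankrd1 (chr19:36119795-36120094, minus strand) and Ajuba (chr14:54577612-54577911, minus strand) hold 2 matches each, in capitals, written 5′ to 3′ along the gene.
Ankrd1: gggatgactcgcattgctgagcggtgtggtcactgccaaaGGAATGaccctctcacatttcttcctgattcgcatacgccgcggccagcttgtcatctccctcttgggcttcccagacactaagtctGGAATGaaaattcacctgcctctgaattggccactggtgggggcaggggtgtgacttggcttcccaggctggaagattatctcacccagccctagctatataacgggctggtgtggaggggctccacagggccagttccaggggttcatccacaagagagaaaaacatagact
Ajuba: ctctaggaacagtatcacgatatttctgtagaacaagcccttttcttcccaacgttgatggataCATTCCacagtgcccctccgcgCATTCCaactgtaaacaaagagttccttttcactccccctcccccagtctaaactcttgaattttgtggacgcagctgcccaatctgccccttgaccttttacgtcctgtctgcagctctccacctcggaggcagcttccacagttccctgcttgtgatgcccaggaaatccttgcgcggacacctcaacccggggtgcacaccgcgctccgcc
Of the 8 genes with a match, Amotl2 and Lats2, regulators of the Hippo pathway, were not called higher (0.17 ± 0.24 and 0.00 ± 0.13), but both were with total library size (0.73 and 0.56) and on both TPM scales, and Amotl2 with the non-coding RNA share of each library as a covariate (0.69). A match is a stretch of letters and does not show that a factor binds there.

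Genes of PI3K and AKT signalling did not rise together. Of 21 tested, 4 rose and 9 fell (median -0.42), but with total library size 7 rose and 1 fell (median 0.14). Phlda3, a repressor of AKT at the membrane, was at 1.12 to 2.44 CPM (median 1.45) in controls and 10.5 to 17.5 CPM (median 12.6) in the tumour-bearing group (3.07 ± 0.22, edgeR adjusted p = 1.39e-10). Irs1, an adaptor of the insulin receptor, was at 30.3 to 52.1 CPM (median 35.0) in controls and 11.6 to 23.7 CPM (median 15.0) in the tumour-bearing group (-1.26 ± 0.20, adjusted p = 1.76e-05; -0.72 with total library size). Neither gene had overlapping groups. Among Notch pathway genes, 5 of 13 rose and 1 fell. The ligand Jag1, which patterns bile ducts, rose from 10.4 to 14.3 CPM (median 11.2) in controls to 27.4 to 42.9 CPM (median 33.8) with tumour (1.59 ± 0.22) and Jag2 changed by 1.65 ± 0.37, while the ligand Dll1 changed by -1.08 ± 0.24 (-0.53, no longer called, with total library size).

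Hepatocyte genes fell, though less steeply than duct genes rose. Of 19 hepatocyte markers, 0 rose and 15 fell (median -0.68), while total library size called 7 lower and 1 higher. Alb, which encodes albumin, was at 73506 to 97724 CPM (median 79560.1) in controls and 17356 to 35284 CPM (median 29386) in tumour-bearing Mdr2-/- livers (-1.56 ± 0.18, edgeR adjusted p = 1.49e-07; -1.03 with total library size). Its share of all counts, which is the same scale as total library size, was 6.85 ± 0.966% in controls and 3.35 ± 0.553% in the tumour-bearing group (n = 6, exact permutation p = 0.00216, adjusted p = 0.00289). Serpina1c, an alpha-1-antitrypsin, went from 944 to 3134 CPM (median 2298) in controls to 317 to 657 CPM (median 402) with tumour (-2.35 ± 0.27). Both genes were separate between the groups. The nuclear receptor CAR, encoded by Nr1i3, changed by -1.27 ± 0.21.

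Enzymes that dispose of nitrogen fell as a block. All 14 urea cycle and amino acid enzymes tested were called lower (median -1.004), 8 of them also with total library size. Cps1, which starts the urea cycle, was at 7112 to 12652 CPM (median 7625) in controls and 2377 to 6652 CPM (median 3618) in the tumour-bearing group (-1.20 ± 0.23, edgeR adjusted p = 0.00016). Otc, the next enzyme of the cycle, changed by -1.17 ± 0.24, Tat, which degrades tyrosine, by -1.42 ± 0.27 and Agxt, which detoxifies glyoxylate, by -1.23 ± 0.24. Highest in the tumour-bearing group for Cps1, Otc and Agxt was replicate 1, the library that stood apart. Of 10 gluconeogenesis and glycogen genes 8 fell, but with total library size only 1 fell and 1 rose. Pck1, the rate-controlling enzyme of glucose output, was at 1038 to 2367 CPM (median 1479.7) and 535 to 1014 CPM (median 767), a change of -0.97 ± 0.30 that was -0.42 and not called with total library size. In the opposite direction, 5 of 10 glycolytic genes typical of dividing cells rose and 0 fell, among them Hk2, a hexokinase scarce in normal liver (0.91 ± 0.30), and the lactate exporter Slc16a3 (1.61 ± 0.38).

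**Figure D3:**
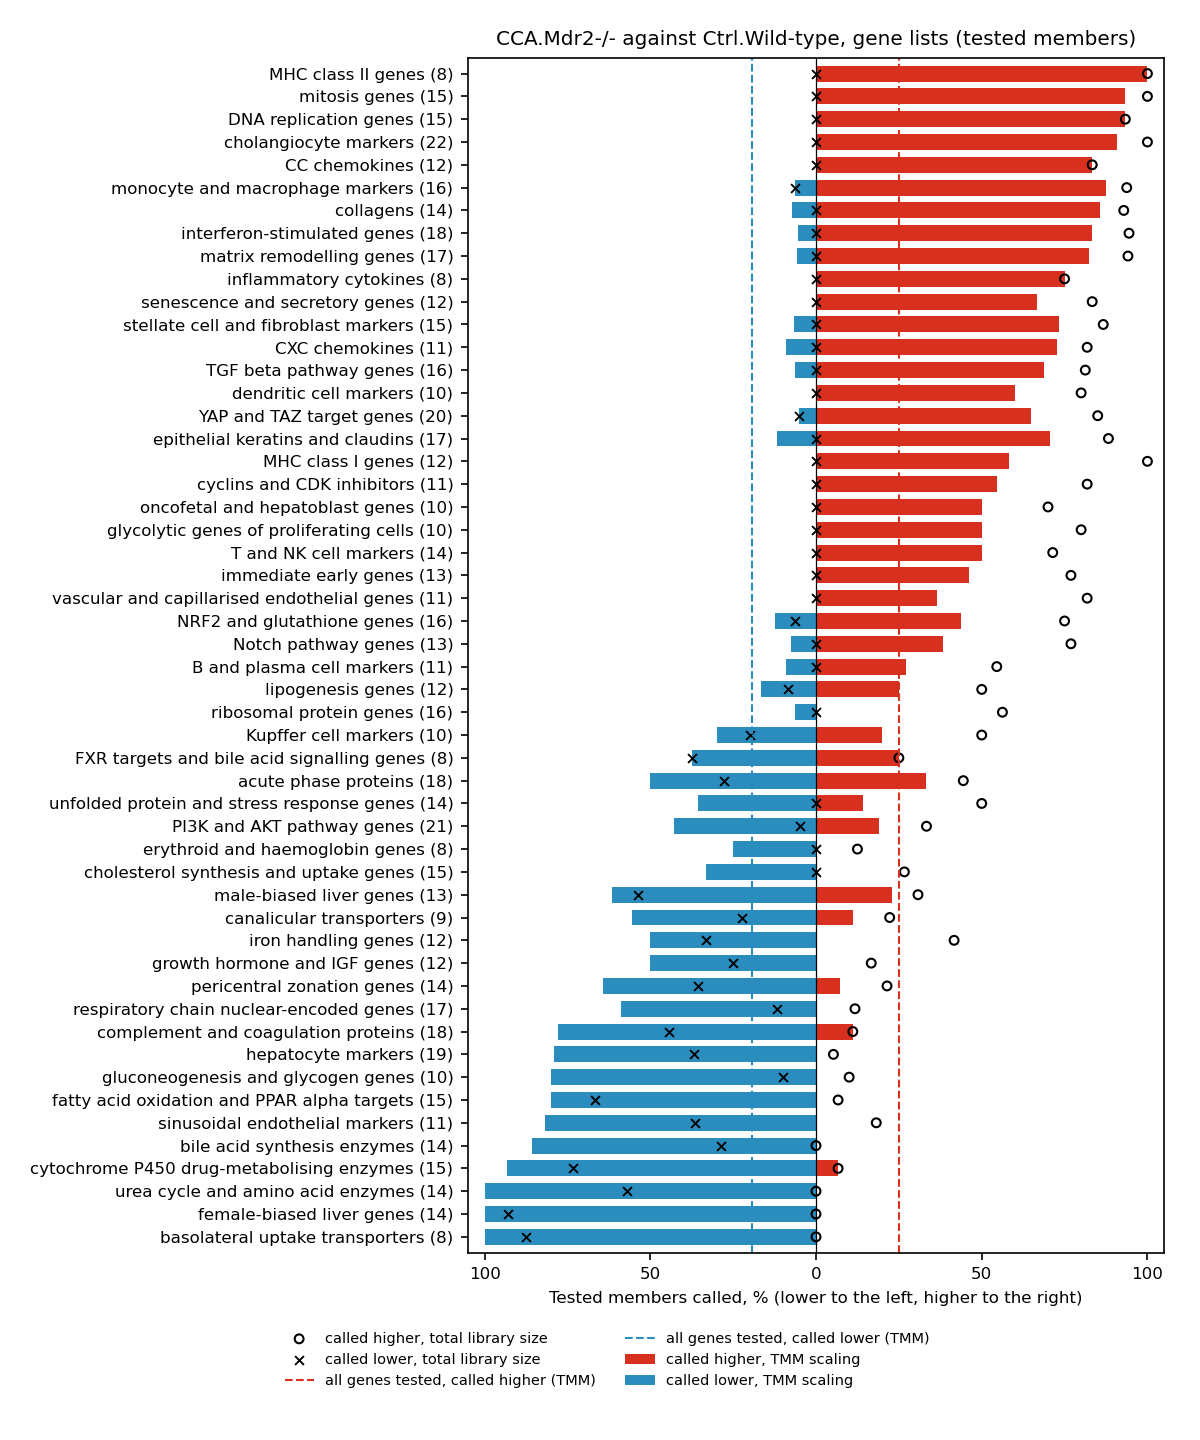
Share of tested members called higher (red, to the right) or lower (blue, to the left) in tumour-bearing Mdr2-/- against wild-type control livers, for the 52 lists with at least 8 tested members (number in parentheses); dashed lines mark the share of all genes, 25.0% and 19.4%, and open circles and crosses the shares with total library size. Bars of duct, cell division, matrix and most immune lists point right, and the crosses of most lists that point left lie short of their bars. With total library size 52.6% of all genes were called higher and 4.49% lower. Circles and crosses are to be read against these shares, and that scaling is no test of a list that points right.

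Bile acid handling was lower at several steps. Of 14 enzymes of bile acid synthesis 12 fell and 0 rose (median -0.78). With total library size 4 fell, with upper-quartile factors 9, and with 1 library of either group left out 9 to 11. Cyp7b1, of the alternative pathway, was at 51.2 to 186 CPM (median 87.3) in controls and 14.2 to 27.1 CPM (median 18.9) in tumour-bearing Mdr2-/- livers (-2.30 ± 0.24, edgeR adjusted p = 3.79e-08), and the bile acid-CoA ligase Slc27a5 changed by -1.47 ± 0.18. The 2 members that were not called were Cyp7a1, the rate-limiting enzyme of the classical pathway, and Cyp8b1, the sterol 12-alpha-hydroxylase. Cyp7a1 ranged over 63.6 to 559.8 CPM (median 446) in controls and 178 to 559 CPM (median 285) in the tumour-bearing group (-0.33 ± 0.47, adjusted p = 0.599; 0.19 with total library size). Cyp8b1 (-0.77 ± 0.40, adjusted p = 0.121) was called lower only without control replicate 6 (-1.01, adjusted p = 0.011), and its sign turned on the authors' TPM (0.10 on log2(TPM + 1)).

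Transporters on the blood side fell together. All 8 basolateral uptake transporters were lower (median -1.23), 7 also with total library size. Slc10a1, the sodium-dependent bile acid importer NTCP, was at 469.7 to 773 CPM (median 603) in controls and 104 to 218 CPM (median 144) in the tumour-bearing group (-2.01 ± 0.21, edgeR adjusted p = 4.06e-08), and the organic anion importer Slco1b2 at 2378 to 5222 CPM (median 3737) and 1226 to 2147 CPM (median 1443) (-1.25 ± 0.20, adjusted p = 1.23e-05). Neither overlapped between the groups. On the bile side, 5 of 9 canalicular transporters fell and 1 rose (with total library size 2 and 2); the list holds Abcb4 itself. Abcb11, the bile salt export pump, went from 419.9 to 1003 CPM (median 894) in controls to 214 to 409.5 CPM (median 278) with tumour (-1.42 ± 0.22, adjusted p = 9.46e-06), and Abcg8, a subunit of the sterol exporter, changed by -1.57 ± 0.23. Abcb1b, a multidrug exporter and a close relative of Abcb4, went the other way. It was at 0.767 to 2.01 CPM (median 1.42) in wild-type controls and 17.1 to 45.5 CPM (median 34.6) in tumour-bearing Mdr2-/- livers (4.53 ± 0.30, edgeR adjusted p = 6.47e-11). Its high level went with the genotype label, with Mdr2-/- controls at 26.8 ± 10.2 CPM and tumour-bearing wild-type livers at 1.59 ± 0.463 CPM (SD, n = 6). Of the basolateral exporters, Slc51b, a subunit of the bile acid exporter of the blood side, rose (1.504 ± 0.37) and Abcc3 fell (-1.12 ± 0.22). Slc51b was far higher in Mdr2-/- controls, at 16.1 ± 9.03 CPM against 3.95 ± 2.12 CPM in tumour-bearing Mdr2-/- livers (-2.03 ± 0.35, adjusted p = 0.000191).

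Drug metabolism and fat oxidation shared the fall. Of 15 cytochrome P450 drug-metabolising enzymes, 14 were lower and 1 higher (median -1.68; 11 and 1 with total library size). Cyp2c37 was at 591 to 975 CPM (median 887) in controls and 45.5 to 80.2 CPM (median 54.8) in tumour-bearing Mdr2-/- livers (-3.78 ± 0.27, edgeR adjusted p = 9.74e-11), and the CAR target Cyp2b10 at 46.0 to 220.4 CPM (median 119.7) and 3.99 to 18.3 CPM (median 9.204) (-3.52 ± 0.39, adjusted p = 1.04e-07). Both were separate between the groups, and Cyp2d9, a member of the male-biased Cyp2d genes, was the only riser (1.68 ± 0.40, groups overlapping). Of 15 genes of fatty acid oxidation and targets of PPAR alpha, 12 fell and 0 rose (median -0.98; 10 and 1 with total library size). Besides Cyp4a14, Cyp4a10 went from 742 to 1012 CPM (median 911) in controls to 36.9 to 144 CPM (median 66.8) with tumour (-3.49 ± 0.38), and Ehhadh, a peroxisomal enzyme, changed by -1.73 ± 0.22. Lipogenesis genes were mixed, with 3 of 12 higher and 2 lower. Mlxipl, the carbohydrate-responsive factor ChREBP, changed by -1.22 ± 0.19, and Pnpla3, one of its targets, by 1.33 ± 0.42.

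Genes that differ between the sexes in mouse liver made up many of the deepest falls. The labels give no sex. Xist was at a mean of 1388 CPM in tumour-bearing Mdr2-/- livers and 1579 CPM in wild-type controls, and Uty, on the Y chromosome, at 0.379 and 0.520 CPM. Group means do not give the sex of each library, and the part of sex in these changes was not tested. All 14 female-biased liver genes tested were called lower (median -3.30), 13 of them with total library size. The call of Cyp3a41a (-2.36) was lost when any of tumour-bearing replicates 1, 4 or 5 or control replicates 1 or 2 was left out. It was also lost with total library size, with no filter on low counts, with the non-coding RNA share of each library as a covariate and on log2(TPM + 0.1). Sult3a1, a sulfotransferase, was at 2273 to 4691 CPM (median 2976) in controls and 22.4 to 115 CPM (median 32.5) in the tumour-bearing group (-5.77 ± 0.60, edgeR adjusted p = 4.81e-08). A1bg, a plasma protein, went from 1489 to 4009 CPM (median 2077) in controls to 40.0 to 156 CPM (median 112) with tumour (-4.51 ± 0.56, adjusted p = 5.44e-07). Both fell in all 6 libraries below the lowest control. The male-biased list did not move as its mirror image: 8 of 13 fell and 3 rose (7 and 4 with total library size). Hsd3b5, a steroid dehydrogenase, changed by -3.89 ± 0.45 and Elovl3, a fatty acid elongase, by -2.59 ± 0.35, while Cyp4a12a, a male-type fatty acid hydroxylase, went from 0.775 to 4.58 CPM (median 1.79) in controls to 32.2 to 134 CPM (median 51.5) with tumour (4.90 ± 0.76, adjusted p = 1.78e-05). Mup20, the male pheromone darcin, rose likewise, from 50.1 to 119 CPM (median 64.3) in controls to 905 to 2879.2 CPM (median 1993) with tumour (4.71 ± 0.55), while Mup9 and Mup18 were among the largest falls. Sex-biased liver genes respond to the rhythm of growth hormone, and of 12 genes of that axis 6 fell and 0 rose (3 and 2 with total library size). Its receptor Ghr was at 831 to 1638 CPM (median 1166) in controls and 355 to 729 CPM (median 479) in the tumour-bearing group (-1.25 ± 0.19), and its target Igf1 at 1025 to 2009.7 CPM (median 1511) and 466 to 880.5 CPM (median 686) (-1.17 ± 0.20).

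Promoters of 2 female-biased genes are printed because all tested members of this list were called lower with TMM and several share a sequence. The core ATTGAT of ONECUT factors, such as HNF6 (ATCAAT on the other strand), was in 6 of 13 promoters of the list (46.2%) and in 7.54% of all 32851. Of these 6, 4 belong to the near-identical Cyp3a16, Cyp3a41a, Cyp3a41b and Cyp3a44, so they are not independent. The other 2, Sult3a1 (chr10:33857472-33857771, plus strand) and A1bg (chr15:60921221-60921520, minus strand), each hold 1 match, in capitals.
Sult3a1: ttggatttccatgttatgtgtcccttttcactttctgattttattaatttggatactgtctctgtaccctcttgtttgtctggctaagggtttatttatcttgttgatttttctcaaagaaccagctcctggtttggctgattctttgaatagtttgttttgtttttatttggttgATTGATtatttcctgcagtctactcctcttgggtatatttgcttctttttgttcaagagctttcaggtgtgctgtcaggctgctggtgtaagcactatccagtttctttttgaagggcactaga
A1bg: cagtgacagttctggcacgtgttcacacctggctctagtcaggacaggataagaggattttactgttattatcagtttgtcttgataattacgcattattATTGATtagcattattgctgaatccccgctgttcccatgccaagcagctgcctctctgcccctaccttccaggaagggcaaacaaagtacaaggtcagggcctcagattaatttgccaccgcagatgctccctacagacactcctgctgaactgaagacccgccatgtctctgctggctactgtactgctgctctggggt
In all, 11 motifs were searched in the promoters of 6 lists, and those shown were chosen after their shares were seen. The others were ATCGAT (ONECUT, second form), CAAAGTCCA (HNF4), TTCNNNGAA (STAT5), TGANTCA (AP-1), TTGCGCAA (C/EBP, full), the HNF1 palindrome in a longer and a shorter form and the FXR inverted repeat. The HNF4 letters were in 3 of 13 female-biased promoters (23.1%, against 0.475% of all), those of Cyp3a16, Cyp3a41a and Cyp3a41b.

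Pericentral genes, which depend on Wnt signals near the central vein, fell in 9 of 14 cases (5 with total library size). Cyp2e1, which oxidises ethanol, was at 4351 to 7491 CPM (median 5758) in controls and 1433 to 2349 CPM (median 1851) in tumour-bearing Mdr2-/- livers (-1.62 ± 0.20, edgeR adjusted p = 5.76e-07), and Lgr5, a receptor that amplifies Wnt signals, at 7.56 to 11.4 CPM (median 8.54) and 2.51 to 4.33 CPM (median 3.39) (-1.38 ± 0.22, adjusted p = 1.15e-05). The groups were separate for both. Rhbg, an ammonium transporter, was the member called higher (0.55), a call lost when any of tumour-bearing replicates 2, 3 or 4 or control replicates 3, 5 or 6 was left out (0.44 to 0.54).

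Plasma proteins of the liver split. Complement and coagulation proteins were lower in 14 of 18 cases and higher in 2 (median -0.78; 8 and 2 with total library size). Plg, which encodes plasminogen, was at 1753 to 3244 CPM (median 2434) in controls and 748 to 1213 CPM (median 1007) in the tumour-bearing group (-1.31 ± 0.19), and the clotting factor F11 changed by -1.13 ± 0.20, while the complement component C8a rose (0.87 ± 0.20). Of 18 acute phase proteins, 6 rose and 9 fell (median -0.36), which became 8 and 5 (median 0.17) with total library size. Lcn2, an iron-siderophore binding protein of inflamed liver, rose from 8.45 to 19.8 CPM (median 11.98) in controls to 135 to 468 CPM (median 358) with tumour (4.65 ± 0.47, edgeR adjusted p = 2.47e-08), and Saa2, a serum amyloid, from 3.32 to 5.54 CPM (median 5.19) in controls to 30.3 to 65.6 CPM (median 42.7) with tumour (3.21 ± 0.40, adjusted p = 5.7e-07). Fga, a chain of fibrinogen, went the opposite way, from 2545 to 6077 CPM (median 4089) in controls to 1460.8 to 1924 CPM (median 1543) with tumour (-1.39 ± 0.19, adjusted p = 2.77e-06; -0.85 with total library size). Each of the 3 was separate between the groups.

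Acute phase promoters are known as targets of C/EBP factors, and both kinds of member hold that motif. TTGCNNAA (TTNNGCAA on the other strand) was in 10 of 15 promoters of the list (66.7%) and in 10.8% of all 32851. Other lists searched held it too. It was in 33.3% of hepatocyte marker, 33.3% of complement and coagulation and 30.8% of female-biased promoters. For cholangiocyte markers and YAP and TAZ targets the shares were 16.7% and 6.25%. Among these 10 are the related genes Saa1, Saa2, Saa3 and Saa4, the pair Orm2 and Orm3 and the pair Fga and Fgb, so they are not independent. Saa2, which rose, and Fga, which fell, are printed to show that the letters occur on either side; each holds 1 match, in capitals (chr7:46751583-46751882 and chr3:83025903-83026202, both plus strand).
Saa2: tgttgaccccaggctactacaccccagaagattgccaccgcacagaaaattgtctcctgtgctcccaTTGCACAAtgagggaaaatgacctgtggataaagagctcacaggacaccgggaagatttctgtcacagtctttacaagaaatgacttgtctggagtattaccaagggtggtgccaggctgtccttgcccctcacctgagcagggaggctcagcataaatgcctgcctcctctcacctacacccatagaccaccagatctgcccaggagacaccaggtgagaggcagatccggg
Fga: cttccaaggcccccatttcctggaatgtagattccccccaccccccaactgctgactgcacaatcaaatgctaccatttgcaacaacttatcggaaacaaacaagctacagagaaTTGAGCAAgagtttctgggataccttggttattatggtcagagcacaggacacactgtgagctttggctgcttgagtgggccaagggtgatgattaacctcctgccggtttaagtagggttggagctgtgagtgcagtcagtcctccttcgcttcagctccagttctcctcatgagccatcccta
None of the matches shown in the 6 printed promoters overlaps a match to another motif searched.

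Cell division genes rose almost without exception. Of 15 DNA replication genes 14 rose (median 0.999), and of 15 mitosis genes 14 (median 2.37); no member of either list fell, also with total library size, but 1 replication gene fell without tumour-bearing replicate 1. Mcm6, a subunit of the replicative helicase, was at 1.64 to 4.98 CPM (median 2.12) in controls and 9.05 to 17.9 CPM (median 13.2) in tumour-bearing Mdr2-/- livers (2.30 ± 0.29, edgeR adjusted p = 5.28e-07). Bub1, a kinase of the spindle checkpoint, went from 0.129 to 0.767 CPM (median 0.403) in controls to 2.73 to 7.02 CPM (median 3.67) with tumour (3.21 ± 0.44, adjusted p = 1.85e-06), and Ccnb1, the mitotic cyclin B1, rose by 2.99 ± 0.48. The groups were separate for Mcm6 and Bub1. Mdr2-/- controls stood higher still for replication: Mcm6 was at 29.9 ± 9.38 CPM there (tumour-bearing minus control -1.15 ± 0.26, adjusted p = 0.00244), and 10 of the 15 genes were lower in tumour-bearing than in control Mdr2-/- livers (17.0% of all genes; 1 with the non-coding RNA share of each library as a covariate). Of 11 cyclins and CDK inhibitors 6 rose and 0 fell. Cdkn1a, which encodes p21, was at 1.36 to 10.5 CPM (median 6.42) in controls and 18.4 to 47.2 CPM (median 42.2) in the tumour-bearing group (2.50 ± 0.38), and Cdkn2b, an inhibitor of CDK4 and CDK6, at 0 to 0.387 CPM (median 0.132) and 0.921 to 2.62 CPM (median 1.40) (2.998 ± 0.47). Of 12 senescence and secretory genes 8 rose, with Plaur, the urokinase receptor, at 2.78 ± 0.40. None fell, except 1 without tumour-bearing replicate 1 or control replicate 2 or 3 and 2 without tumour-bearing replicate 6.

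Matrix genes rose strongly. Of 14 collagens, 12 rose and 1 fell (median 2.02; 13 and 0 with total library size). Col1a1, a chain of type I collagen, was at 5.42 to 9.64 CPM (median 7.53) in controls and 50.8 to 121 CPM (median 72.9) in tumour-bearing Mdr2-/- livers (3.41 ± 0.38, edgeR adjusted p = 1.37e-07). Col3a1, the type III chain, went from 38.2 to 73.8 CPM (median 53.8) in controls to 443 to 514 CPM (median 497) with tumour (3.13 ± 0.27, adjusted p = 2.99e-09). Col18a1, a basement membrane collagen made by hepatocytes, was the exception (-0.84 ± 0.27; -0.30, no longer called, with total library size). Of 17 matrix remodelling genes 14 rose and 1 fell (16 and 0 with total library size). Timp1, which blocks matrix proteases, was at 0.129 to 0.603 CPM (median 0.312) in controls and 5.23 to 10.6 CPM (median 6.93) in the tumour-bearing group (4.28 ± 0.50), the collagen crosslinker Lox rose by 4.04 ± 0.51 and the collagenase Mmp13 by 2.99 ± 0.35. Fn1, the plasma and matrix protein fibronectin, changed by -0.85 ± 0.27 (-0.31, no longer called, with total library size).

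Markers of the cells that make matrix were higher too. Of 15 stellate cell and fibroblast markers 11 rose and 1 fell. Lum, a proteoglycan of fibroblasts, was at 12.4 to 29.4 CPM (median 19.2) in controls and 102 to 138 CPM (median 123) in tumour-bearing Mdr2-/- livers (2.54 ± 0.23, edgeR adjusted p = 4.75e-09), and Vim, which encodes vimentin, rose by 2.41 ± 0.22. Lrat, which stores vitamin A in quiescent stellate cells, changed by -0.72 ± 0.21 (-0.20, not called, with total library size). Of 16 TGF beta pathway genes 11 rose and 1, the inhibitor Smad7, fell (-0.78 ± 0.22; -0.25, not called, with total library size); 2 fell without tumour-bearing replicate 1 or control replicate 4. The ligand Tgfb3 was at 1.14 to 2.19 CPM (median 1.29) in controls and 5.19 to 26.3 CPM (median 17.7) in the tumour-bearing group (3.61 ± 0.38), and Itgb6, the integrin chain that activates latent TGF beta on epithelium, at 0.0852 to 0.4997 CPM (median 0.266) and 1.88 to 4.65 CPM (median 3.10) (3.53 ± 0.47). Set against Mdr2-/- controls, 5 of the 14 collagens were higher and 1 lower (17.9% and 17.0% of all genes), and 8 of the 15 stellate cell and fibroblast markers were higher and 1 lower. With the non-coding RNA share of each library as a covariate these counts were 0 and 0 for collagens and 2 and 0 for the markers, and without Mdr2-/- control replicate 3 collagens gave 4 and 3. Col3a1, a fibrillar collagen, was at 164 to 484 CPM (median 213) in Mdr2-/- controls and 443 to 514 CPM (median 497) with tumour (0.95 ± 0.25, edgeR adjusted p = 0.007), and Tgfb3 at 4.30 to 5.78 CPM (median 4.91) and 5.19 to 26.3 CPM (median 17.7) (1.81 ± 0.34, adjusted p = 0.000435). The groups overlapped for both genes, through Mdr2-/- control replicate 4 for Col3a1 and tumour-bearing replicate 1 for Tgfb3. Col1a1 and Itgb6 were not called in this comparison (-0.15 ± 0.34, adjusted p = 0.758, and 0.12 ± 0.37, adjusted p = 0.819).

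Markers of recruited myeloid cells were higher, and those of resident Kupffer cells were mixed. Of 16 monocyte and macrophage markers 14 rose and 1, the mannose receptor Mrc1, fell (median 1.97). Ccr2, the receptor by which monocytes enter tissue, was at 1.79 to 4.50 CPM (median 2.86) in controls and 21.1 to 33.0 CPM (median 26.8) in tumour-bearing Mdr2-/- livers (3.13 ± 0.29, edgeR adjusted p = 6.85e-09), Ms4a7 rose by 4.32 ± 0.52 and Trem2, a receptor of scar-associated macrophages, by 2.98 ± 0.32. Of 10 Kupffer cell markers 2 rose and 3 fell (median -0.06; with total library size 5 and 2, median 0.46). Cd163, a haemoglobin scavenger receptor, fell from 8.72 to 17.5 CPM (median 11.3) in controls to 1.051 to 5.27 CPM (median 1.77) with tumour (-2.48 ± 0.35, adjusted p = 2.98e-06) and the complement component C6 rose by 2.52 ± 0.26. Timd4 changed by -0.61 ± 0.15 (-0.07, not called, with total library size). Of 11 neutrophil markers only 6 passed the filter on low counts, and 4 of these rose, with S100a8 at 1.07 ± 0.30. A gene near 0 in controls passes the filter only through a group where it is higher. The neutrophil count therefore says little about that list.

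Markers of T cells rose in part. Of 14 T and NK cell markers 7 rose and 0 fell (median 0.88; 1 fell without tumour-bearing replicate 1). Cd8a was at 0.430 to 1.61 CPM (median 0.623) in controls and 1.47 to 7.97 CPM (median 5.76) in tumour-bearing Mdr2-/- livers (2.80 ± 0.53, edgeR adjusted p = 0.000127), its partner chain Cd8b1 at 0.182 to 0.986 CPM (median 0.401) and 0.995 to 3.80 CPM (median 2.34) (2.31 ± 0.51). Only replicate 1 of the tumour-bearing libraries overlapped the controls for Cd8a, and none did for Cd8b1. Itgae, the integrin CD103 of tissue-resident T cells and of some dendritic cells, rose from 0.480 to 1.53 CPM (median 1.02) in controls to 2.43 to 8.38 CPM (median 6.30) with tumour (2.56 ± 0.33, adjusted p = 8.09e-07). In tumour-bearing wild-type livers Cd8a was at 0.657 ± 0.509 CPM (SD, n = 6), below the tumour-bearing Mdr2-/- group by 3.04 on the log2 scale (adjusted p = 0.000593), and 7 of the 14 markers were higher in the Mdr2-/- tumour-bearing group than in them (7.13% of all genes; 5 to 7 with 1 library of either group left out). Against Mdr2-/- controls 2 of the 14 were higher (17.9% of all genes), 1 to 7 with 1 library of either group left out, 7 without Mdr2-/- control replicate 2, and 8 with total library size. Cd8a was at 0.938 to 6.90 CPM (median 1.37) in Mdr2-/- controls, where replicates 2 and 5 reached the levels of the tumour-bearing group, and was not called (1.04 ± 0.48, adjusted p = 0.0878), but was without tumour-bearing replicate 1 (1.23), without Mdr2-/- control replicate 2 (1.57), with total library size (1.31), with voom and on both TPM scales. Of 11 B and plasma cell markers 3 rose and 1 fell (25.0% and 19.4% of all genes). The list median was -0.04, the same as over all genes, so the list as a whole did not rise. The 3 that rose were antibody chains or the chain that joins them. Igha, the constant chain of IgA, was at 0.329 to 0.954 CPM (median 0.468) in controls and 3.58 to 6.03 CPM (median 4.68) in the tumour-bearing group (3.13 ± 0.43, adjusted p = 2.32e-06), Jchain, which joins IgA dimers, rose by 2.52 ± 0.40 and the light chain Igkc by 1.88 ± 0.36. Ms4a1, which encodes the B cell antigen CD20, was called lower (-0.75 ± 0.27), but not with total library size (-0.21) or without tumour-bearing replicate 4 (-0.60) or 6 (-0.70) or control replicate 2 (-0.71) or 6 (-0.68).

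Signals that recruit and alert immune cells rose with these markers. Of 12 CC chemokines 10 rose and 0 fell, and of 11 CXC chemokines 8 rose and 1, Cxcl12, was called lower (-0.47 ± 0.13), though its sign turned with total library size (0.07). Ccl20, which attracts dendritic and Th17 cells, was at 0.0436 to 0.366 CPM (median 0.152) in controls and 3.79 to 7.18 CPM (median 4.53) in tumour-bearing Mdr2-/- livers (4.82 ± 0.76, edgeR adjusted p = 1.38e-05), and Ccl2, the ligand of Ccr2, at 0.4997 to 1.11 CPM (median 0.693) and 6.16 to 11.8 CPM (median 10.4) (3.59 ± 0.50, adjusted p = 2.43e-06). Both were separate between the groups. Tnf rose from 0.298 to 0.560 CPM (median 0.491) in controls to 1.75 to 3.87 CPM (median 2.16) with tumour (2.42 ± 0.31) and the alarmin Il33 by 1.30 ± 0.20. Of 18 interferon-stimulated genes 15 rose, among them Oas1a (2.46 ± 0.28), an RNA sensor. Rsad2, the antiviral protein viperin, was called lower (-0.73 ± 0.28), which was lost when any of tumour-bearing replicates 1, 2 or 4 or control replicates 1 to 4 was left out (-0.62 to -0.69). All 8 MHC class II genes rose, with H2-Aa from 68.9 to 118 CPM (median 98.01) in controls to 197 to 353 CPM (median 268) with tumour (1.47 ± 0.21), as did 7 of 12 MHC class I genes, with the immunoproteasome subunit Psmb9 at 1.57 ± 0.19.

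Endothelial genes moved in both directions. Of 11 sinusoidal endothelial markers 9 fell and 0 rose (median -0.56; 4 and 2 with total library size). Dnase1l3, a secreted nuclease, was at 87.1 to 129 CPM (median 107) in controls and 37.9 to 60.8 CPM (median 52.5) in tumour-bearing Mdr2-/- livers (-1.048 ± 0.16, edgeR adjusted p = 6.7e-06), and Bmp2, which tells hepatocytes to make hepcidin, changed by -1.01 ± 0.21. Hamp, hepcidin itself, changed by -1.16 ± 0.24. Of 11 vascular and capillarised endothelial genes 4 rose and 0 fell (25.0% and 19.4% of all genes). Cd34, a marker of continuous capillaries, went from 2.62 to 4.52 CPM (median 3.71) in controls to 16.4 to 29.4 CPM (median 22.7) with tumour (2.66 ± 0.24, adjusted p = 6.72e-09), and Esm1, of sprouting tip cells, from 0.0436 to 0.298 CPM (median 0.1002) in controls to 1.49 to 4.85 CPM (median 2.41) with tumour (4.36 ± 0.58, adjusted p = 1.38e-06). All 3 of these ranges were separate between the groups. Compared with tumour-bearing wild-type livers, 11 of the 11 sinusoidal markers were lower (4.0% of all genes; 7 without tumour-bearing Mdr2-/- replicate 6, 6 with total library size), with Dnase1l3 at -0.91 ± 0.16 (adjusted p = 0.000505).

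The remaining lists cover stress responses, respiration and ribosomes. NRF2 and glutathione genes rose in 7 and fell in 2 of 16 cases (median 0.19), with Gstm3, a glutathione transferase, at 2.41 ± 0.44 and Gclc, which limits glutathione synthesis, at -1.01 ± 0.19. Of 14 genes of the unfolded protein and stress response 5 fell and 2 rose, which turned to 0 and 7 with total library size. Immediate early genes rose in 6 of 13 cases (median 0.92), with Atf3 from 1.77 to 7.71 CPM (median 2.86) in controls to 4.88 to 25.0 CPM (median 8.82) with tumour (1.67 ± 0.39). Of 17 nuclear-encoded respiratory chain genes 10 fell and 0 rose (median -0.51), but 2 fell and 2 rose with total library size (median 0.02). Of 16 ribosomal protein genes 0 rose and 1, Rpl7, was called lower (-0.38 ± 0.14). That call was absent without tumour-bearing replicate 2 (-0.36) or 5 (-0.35) or control replicate 1 (-0.35) or 6 (-0.32), and with total library size 9 of the list rose and Rpl7 was at 0.17, not called.

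Markers of tissues that a liver piece could include were looked at in full. Of 14 kidney tubule markers 5 passed the filter and 3 rose: Cdh16 from 0.0436 to 0.855 CPM (median 0.146) in controls to 1.97 to 22.6 CPM (median 7.73) with tumour, Lrp2, the endocytic receptor megalin, from 0.227 to 0.947 CPM (median 0.545) in controls to 3.65 to 16.5 CPM (median 8.92) with tumour (4.04 ± 0.54) and the transcription factor Pax8 from 0.122 to 0.473 CPM (median 0.305) in controls to 1.37 to 7.41 CPM (median 3.84) with tumour (3.5998 ± 0.47). The defining kidney genes Umod, Slc12a1, Slc34a1, Aqp2 and Kap had at most 4 counts in any of the 12 libraries. Over the 5 kidney markers that passed the filter, summed CPM was 13.4 to 47.4 in the tumour-bearing group and 1.18 to 2.38 in wild-type controls. Mdr2-/- controls held 1.44 to 3.94, and tumour-bearing wild-type livers 2.16 to 12.2. Here too a gene near 0 in controls passes the filter only through a group where it is higher. The 3 rises and these sums therefore say little about the kidney list. Of 12 pancreas acinar markers 1, Cela1, was tested (-1.43 ± 0.27), and the others reached at most 54 counts in a library, Ctrb1 in a control. Of 7 adipocyte markers 2 rose with Adipoq at no more than 8 counts in a library, and of 6 mesothelial markers tested 3 rose, with Wt1 at 2.83 ± 0.41. What part these tissues have in the results was not tested.

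The lists were then set beside the values of the other groups. All comparisons with wild-type controls share those 6 libraries, and their values are given next to each other without a test of likeness. The medians over all genes were -0.04, 0.03 and 0.03 in the order used here. Median log2 fold changes against wild-type controls were -3.30 for female-biased genes in tumour-bearing Mdr2-/- livers, -3.15 in Mdr2-/- controls and -1.65 in tumour-bearing wild-type livers. For collagens they were 2.02, 2.08 and 1.32, and for monocyte and macrophage markers 1.97, 1.91 and 1.13. Tested directly against Mdr2-/- controls, 0 of the 14 female-biased genes were higher and 4 lower (2 and 3 with total library size, 0 and 0 with the non-coding RNA share as a covariate), and 0 of the 16 monocyte and macrophage markers were higher and 2 lower, beside the collagen counts given above. Urea cycle and amino acid enzymes gave -1.004, -0.19 and -0.75, and complement and coagulation proteins -0.78, -0.15 and -0.55, so there the median of tumour-bearing wild-type livers was the nearer. Cholangiocyte markers stood highest in the tumour-bearing Mdr2-/- livers (3.81, 2.16 and 2.49), and DNA replication genes highest in Mdr2-/- controls (0.999, 1.87 and 1.15). Over all genes, the tumour-bearing Mdr2-/- group differed from Mdr2-/- controls in 3074 genes upward (17.9%) and 2921 downward (17.0%), and from tumour-bearing wild-type livers in 1228 upward (7.13%) and 689 downward (4.0%). Without tumour-bearing Mdr2-/- replicate 6 the last 2 counts were 756 and 360, without tumour-bearing wild-type replicate 2 they were 792 and 440, and without its replicate 4 they were 771 and 412. Without tumour-bearing Mdr2-/- replicate 6 the lower count against Mdr2-/- controls was 1927. With the non-coding RNA share of each library as a covariate the counts against Mdr2-/- controls were 695 and 261.

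**Figure D4:**
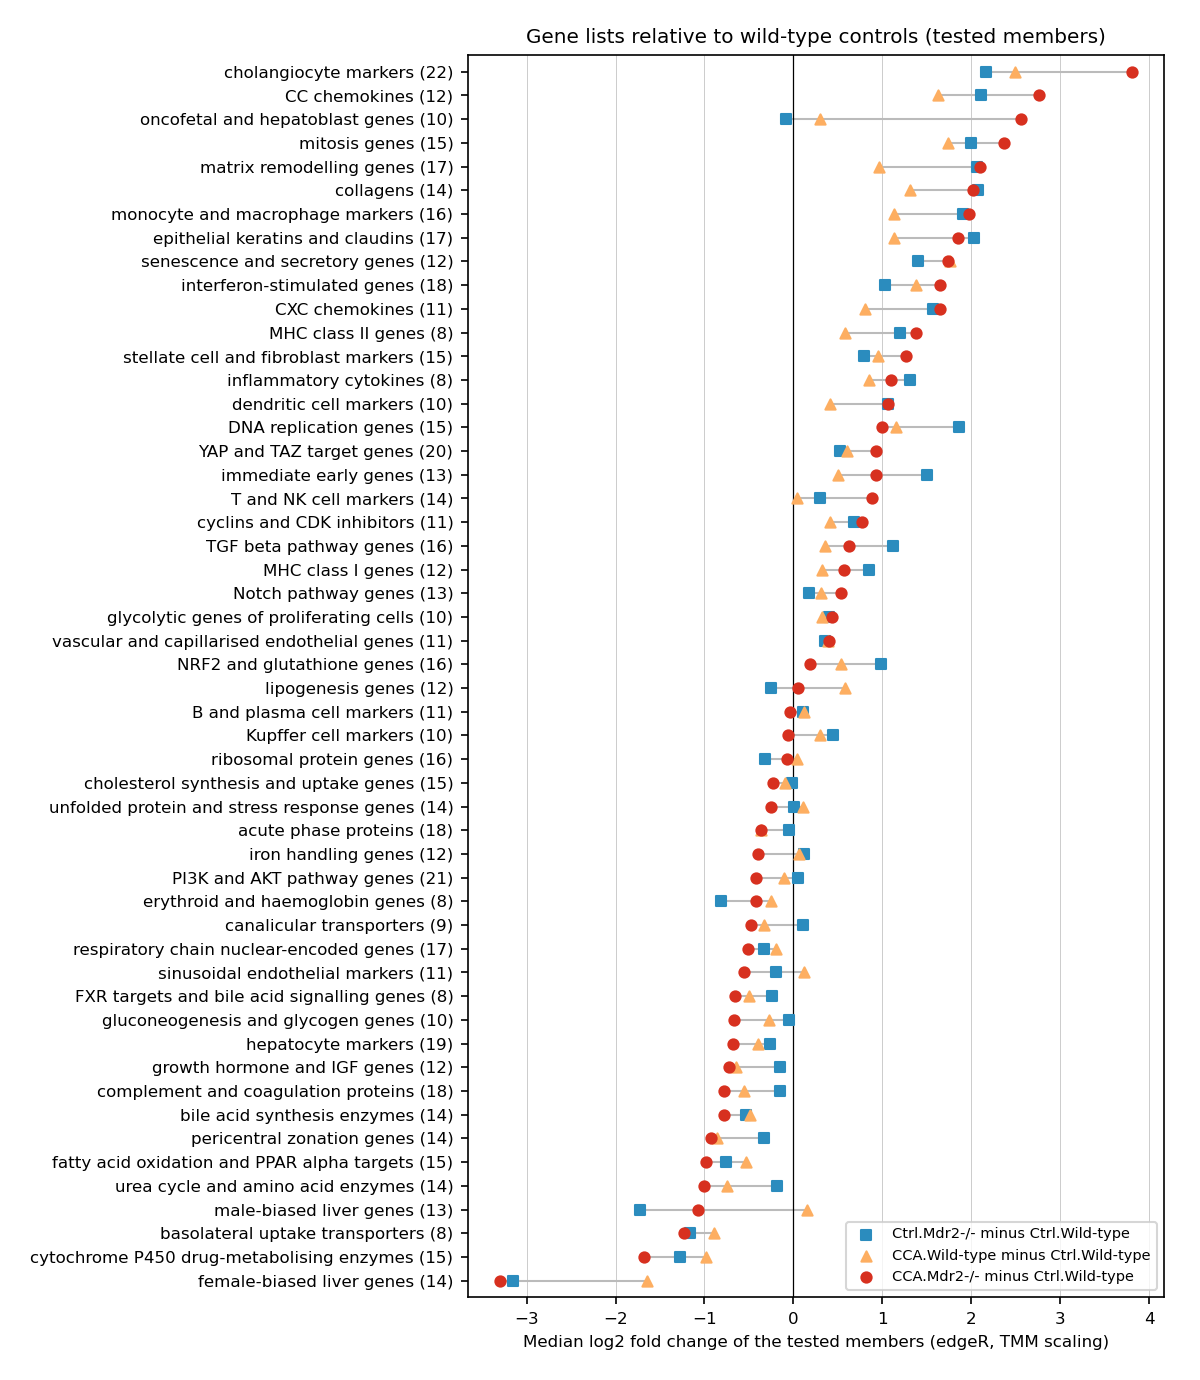
Median log2 fold change of the tested members of 52 gene lists relative to wild-type controls (horizontal) in Mdr2-/- controls (squares), tumour-bearing wild-type livers (triangles) and tumour-bearing Mdr2-/- livers (circles), with TMM scaling. Grey lines join the 3 values. Circles lie near the squares for female-biased, collagen and macrophage lists, near the triangles for urea cycle and pericentral lists, and beyond both for cholangiocyte markers and P450 enzymes.

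**Figure D5:**
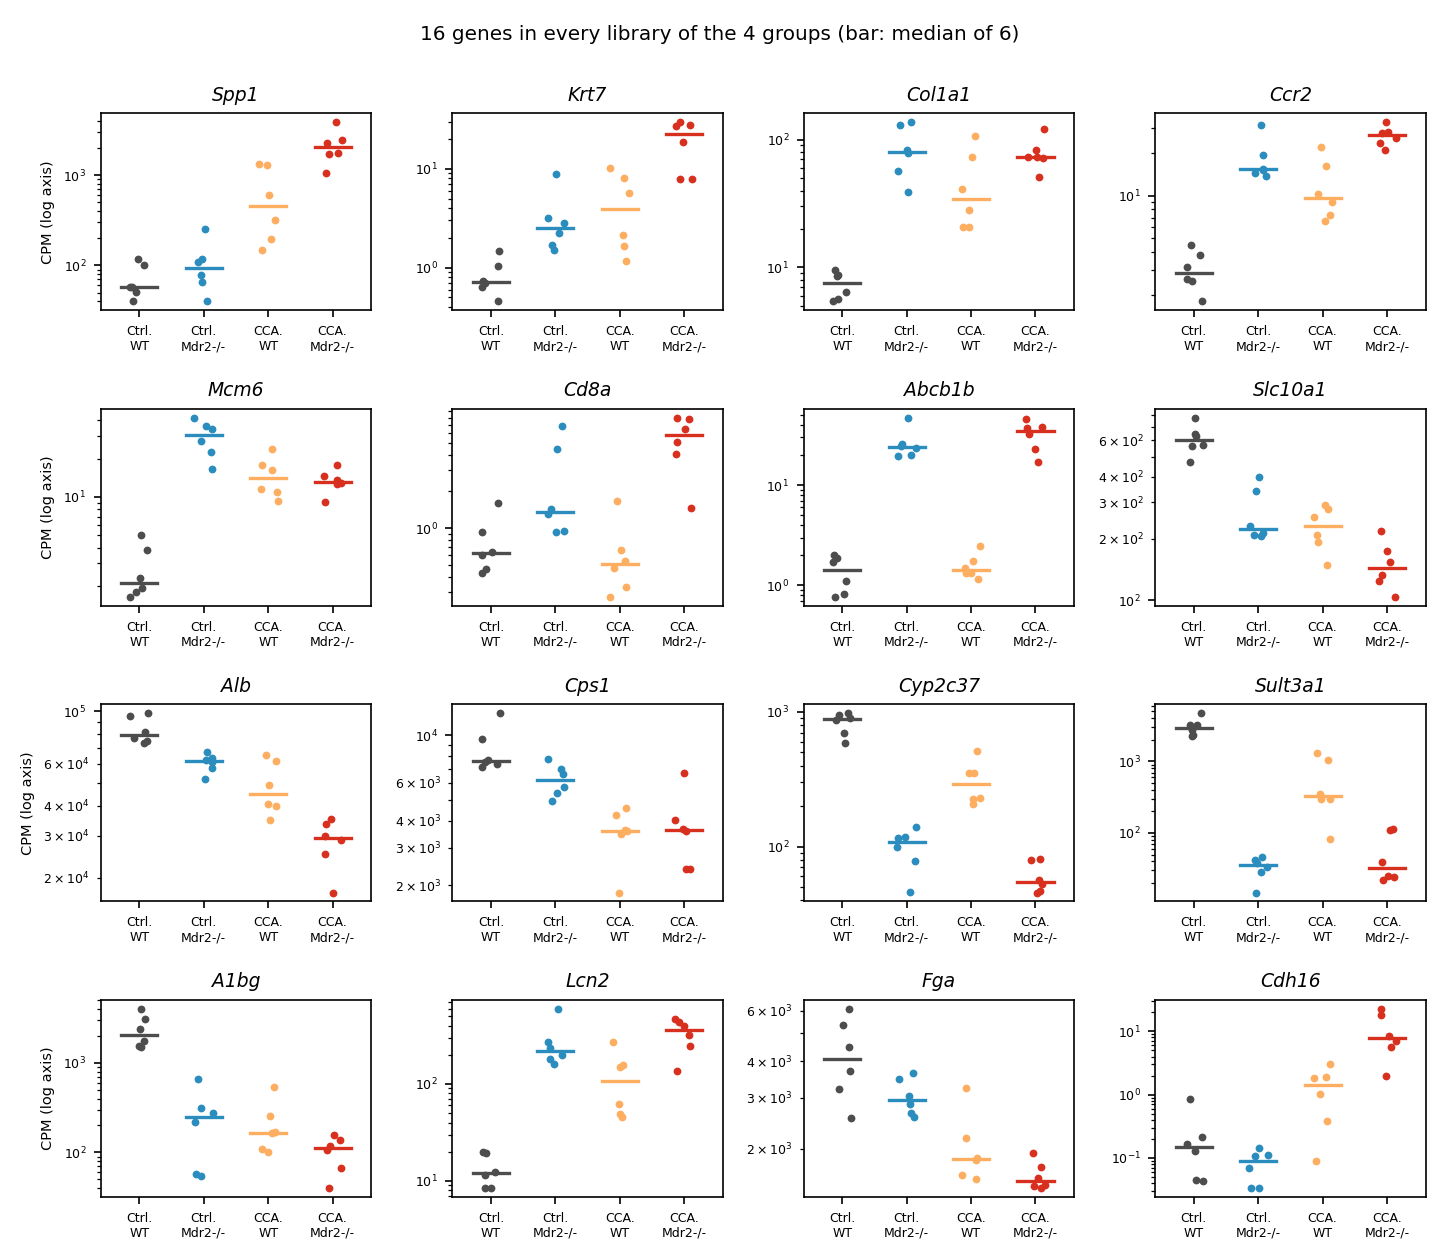
Level of 16 genes in every library of the 4 groups, in CPM after TMM scaling on log axes; each point is a library and each bar the median of 6. Spp1 and Krt7 are highest in tumour-bearing Mdr2-/- livers, Abcb1b is high in both Mdr2-/- groups, Mcm6 peaks in Mdr2-/- controls and Cd8a is high in tumour-bearing Mdr2-/- livers except for 1 library.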

How the data were processed

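Gene counts were analysed as the authors deposited them, for 24 bulk libraries of mouse liver made after depletion of ribosomal RNA and sequenced as read pairs, per the labels' protocols. The second deposited table holds TPM values, scaled by the authors for gene length and library total, which served only as an alternative scale. The submitters' processing notes name build mm39 and DESeq2. For the aligner, the counting tool, its use of strand and the release of the annotation the entry is: not given in the sources used here. Hence overlapping and antisense genes may share reads.

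Of 49315 genes, 174 without a symbol among them, 17216 passed edgeR's filter (minimum count 10). A quasi-likelihood model with 4 group means was fitted to all 24 libraries with TMM scaling and robust dispersion (edgeR 4.0.16, R 4.3.3, limma 3.58.1, DESeq2 1.42.0), and p-values were adjusted over all genes by Benjamini-Hochberg. The biological coefficient of variation was 0.272. Shares of counts were compared by a 2-sided exact permutation test over libraries (scipy 1.17.1). Between 20976459 and 28416901 counts lie behind each of the 12 libraries compared. In simulated counts from these 12 libraries, over 16204 genes, edgeR recovered 96 of the 100 genes set to 2-fold and all 100 set to 4-fold and made 8 false calls. No other genes were changed in the simulation, whereas 44.4% of genes were called in the data. It also rested on 12 libraries, not on the model of all 24, and did not test the choice of scaling. The 8 false calls therefore give no error rate for the calls reported here. In 30 pairs of replicates within the 2 groups compared, the counts differed by more than sampling noise (chi-square per gene 29.4 to 209.6). No library was thus a second sequencing of another of its group. Libraries of the other 2 groups were not checked in this way. The check cannot tell whether 2 libraries came from the same animal.

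The comparison, its 59 gene lists (755 genes, 702 tested, 5 by a synonym) and the tests were chosen with earlier results of these data known. The text names Abcb4, Akt1 and Yap1, the 10 largest rises and 10 largest falls among called, annotated genes with at least 5 CPM in the higher group and no overlap, and from each list up to 4 called members of largest change with at least 1 CPM in the higher group, plus the largest the other way. Some genes are not reported here. Amotl2, Ajuba, Lats2, Cyp7a1, Cyp8b1, Saa2, Mup20, Xist, Uty, the Cyp3a paralogs of the promoter search and the markers near 0 fall outside this rule and were chosen after their values were seen, as were the genes given in the comparisons with the other groups. Alternatives changed the scaling, filter, tool, covariates or libraries. Promoter sequences are RefSeq's on GRCm38.p6, matched by symbol.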

Additional observations from a re-analysis of the deposited data

Results flagged for a closer look

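Among 304 groups of 6 libraries looked at (both groups for each of 148 genes and for 4 shares of counts), 24 held a library set apart from the rest, meaning that the gap to its neighbour took most of the group's range by Dixon's test. Chance alone marks about 1 group in 20. Several of the marked values belonged to the same few libraries.

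Tumour-bearing Mdr2-/- replicate 1, which also stood apart on the first principal component, held the highest value of its group for Abcb4 (59.34 CPM), Nr1i3 (34.48 CPM), Otc (793.2 CPM), Agxt (133.8 CPM) and Cd163 (5.268 CPM). Each of these genes is lower in that group than in wild-type controls, so this library lay nearest to the controls. Replicate 3 held the highest value for Igf2 (201.5 CPM), Gpc3 (32.12 CPM), Bub1 (7.019 CPM), Cyp3a16 (27.54 CPM) and Cyp3a41b (4.913 CPM). Replicate 6 held the highest for Akr1cl (23.23 CPM), Prss35 (31.09 CPM), Sncg (57.56 CPM), Ctgf (139.5 CPM) and Timp1 (10.57 CPM), all genes that rose in the group. Replicate 4 was highest for Gstm3 (660.8 CPM) and replicate 2 for Hsd3b5 (0.4171 CPM).

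Among wild-type controls, replicate 1 was highest for Cdh16 (0.8548 CPM), Spink1 (0.7937 CPM) and Phlda3 (2.442 CPM). Replicate 4 was highest for Jag1 (14.35 CPM) and replicate 5 for Yap1 (78.41 CPM). Replicate 6 was lowest for Cyp2c69 (205.4 CPM) and Nt5e (75.78 CPM). None of the genes other than Igf2 lost its call when the library named here was left out, and Yap1 was not called with or without it.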

How the results depend on the processing

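No paired analysis was possible because the labels give no replicate numbers that groups share. Against wild-type controls, 4302 genes were higher and 3347 lower, which became 9051 and 773 with total library size, 9032 and 664 on log2(TPM + 1) and 9072 and 653 on log2(TPM + 0.1). The other alternatives gave 3785 to 4886 higher and 2778 to 4274 lower, and leaving out a library 3900 to 4422 and 2969 to 3505. Against Mdr2-/- controls the 3074 higher became 5563 with total library size and 695 with the non-coding RNA share as a covariate. The 2921 lower became 924, 1036 on log2(TPM + 1), 953 on log2(TPM + 0.1) and 261 with the covariate, and 1927 to 3174 with a library of either group left out. Against tumour-bearing wild-type livers the 1228 higher became 2668 with total library size, 2493 with voom, 3053 on log2(TPM + 1) and 2834 on log2(TPM + 0.1), and 756 to 1801 with a library of either group left out. The 689 lower became 259 with total library size, 1048 with DESeq2, 1627 with voom, 253 and 235 on the TPM scales and 1150 with the covariate, and 360 to 950 likewise. The causes were not tested. Among genes that the rule names, signs turned, with total library size, log2(TPM + 1) and log2(TPM + 0.1) in this order, for Pik3ca (0.0069, 0.035 and 0.038), Cxcl12 (0.066, 0.091 and 0.092), Rpl7 (0.17, 0.201 and 0.202) and Yap1 (0.41, 0.405 and 0.436). Yap1 also turned with the non-coding RNA share as a covariate (0.21), and of these settings only total library size called it. Of 248 called genes that the rule names, 208 kept call and direction under every alternative run, and 231 under every one that left the scaling alone. The difference in the share of nuclear non-coding RNAs was 4.12 percentage points of summed TPM and no longer passed the exact permutation test (p = 0.11). The shares of Alb on summed TPM and with a library left out, which kept their direction, and the leaving out of Mdr2-/- control and tumour-bearing wild-type libraries were added after seeing the data. Changes smaller than the shift between scalings, and levels near 0 counts, are the least certain.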
